A study of Mus musculus with 16 samples.

Results

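This report describes the genes for suppressive cytokines and other secreted or surface products of regulatory T cells (Treg cells). The group was set as 7 named mouse genes: Il10, Tgfb1, Ebi3, Il12a, Areg, Penk and Il1rl1. They were looked up in the array's annotation among probe sets that carry a single gene symbol, and 5 of the 7 had such a probe set, of 22180 genes in all. Areg, an epidermal growth factor family ligand that supports tissue repair, and Il1rl1, the receptor for interleukin-33, had none and were not analysed here. All 5 measured genes passed the filter on dim genes, in every group, as did 16760 genes in all.

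Treg cells are CD4+ T cells marked by the transcription factor Foxp3 that restrain other immune cells, in part through secreted factors. Interleukin-10 acts through a receptor of the Il10ra and Il10rb chains and signals through Stat3 to quiet myeloid cells and T cells. TGF-beta 1 is made as a latent complex that is cut by the protease furin, held on the Treg surface by Lrrc32 and released by integrins such as the Itgav and Itgb8 pair, after which it signals through Tgfbr1, Tgfbr2 and the Smad proteins. Ebi3 and Il12a encode the chains that pair as interleukin-35. Penk encodes proenkephalin, the precursor of the enkephalin opioid peptides.

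Expression was measured on 16 arrays of Treg cells from C57BL/6 mice, in 4 groups of 4. The control groups were Atg7+/- (genotype Atg7+/flFoxp3-Cre) and the others Atg7-/- (Atg7fl/flFoxp3-Cre), so all 4 groups carried the Foxp3-driven Cre and at least 1 floxed Atg7 allele, and no group had 2 unfloxed copies. Atg7 encodes an enzyme needed for autophagy, the route by which cells digest their own contents. In each genotype, 1 group was left untreated and the mice of the other were given rapamycin, which blocks the kinase mTOR, at 4 mg per kg body weight by daily intraperitoneal injection for 5 days. CD4+Foxp3-YFP+ cells were isolated by sorting spleen and lymph node cells, and those of all groups were stimulated on plates with antibodies to CD3 and CD28 for 4 h before RNA was taken. All levels therefore belong to recently activated cells, and cells at rest were not measured. The labels do not state the age or sex of the mice, any vehicle given to untreated mice, or whether each replicate was a separate mouse. The p-values therefore set differences of group means only against the spread between these arrays, and some of that spread may be technical. Whether they speak for separate mice is not known.

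The array values are log2 signals, so a difference of 1 is a doubling. Pearson correlations between arrays were 0.9733 to 0.9939, and 7 markers of T and Treg cells had a mean log2 signal of 10.61 to 10.72 and 10.65 to 10.78 in untreated Atg7+/- and Atg7-/- cells, above the 10.43 to 10.50 and 10.35 to 10.55 under rapamycin. Rapamycin Atg7-/- replicate 3 lay farthest from its group mean, with a root mean square deviation of 0.242 against 0.137 to 0.214 on the other arrays. Atg7 itself had a log2 signal of 6.59 to 6.74 in untreated Atg7+/- cells and 6.05 to 6.62 in untreated Atg7-/- cells. Under rapamycin it had 6.67 to 6.85 and 6.02 to 6.73. Its difference between genotypes was not called in either condition (adjusted p = 0.299 and 0.232, limma), and it is not known here whether its probes lie within the floxed stretch, so this level is no check of the deletion. Foxp3, the gene that drives both the sort and the Cre, was lower in untreated Atg7-/- cells (log2 difference -0.40, adjusted p = 0.0355, limma). Under rapamycin its difference was similar in size but not called (-0.35, interval -0.56 to -0.13, adjusted p = 0.0662, limma).

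The sequences before the start sites of Tgfb1 and Ebi3 are shown because both genes fell under rapamycin in Atg7+/- cells and their windows differ in base composition. They are the 250 bases before the annotated start, 5′ to 3′ on the + strand, from RefSeq on GRCm38.p6, at chr7:25686752-25687001 for Tgfb1 and chr17:55952373-55952622 for Ebi3. Capitals mark the GC box GGGCGG, the core bound by Sp1-type factors, on either strand.
Tgfb1: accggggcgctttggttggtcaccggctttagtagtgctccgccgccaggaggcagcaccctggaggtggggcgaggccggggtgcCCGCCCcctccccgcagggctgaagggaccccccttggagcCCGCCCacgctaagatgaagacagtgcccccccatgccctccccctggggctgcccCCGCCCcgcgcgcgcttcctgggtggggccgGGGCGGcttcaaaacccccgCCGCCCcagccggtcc
Ebi3: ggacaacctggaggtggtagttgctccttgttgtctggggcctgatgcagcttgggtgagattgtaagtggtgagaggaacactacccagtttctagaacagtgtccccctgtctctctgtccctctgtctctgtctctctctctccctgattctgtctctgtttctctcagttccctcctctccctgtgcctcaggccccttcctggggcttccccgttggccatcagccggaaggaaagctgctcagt
The Tgfb1 window was 75.2% G and C and held the GC box 5 times, starting at positions -164, -123, -67, -36 and -16 relative to the start site. The Ebi3 window was 56.0% G and C and held none, against a median of 52.4% over 32851 such windows in the table, of which 32.7% held the GC box. Il12a has 2 annotated start sites, with windows of 50.8% and 58.4% G and C, and the GC box occurred only in the second, at position -120. Neither the Tgfb1 window, the Ebi3 window nor either Il12a window held the AP-1 motif TGANTCA, the STAT motif TTCNNNGAA, the NFAT core GGAAAA or the E-box CACGTG on either strand. These occur in 6.75%, 7.02%, 20.4% and 6.02% of all windows, and a match or its lack describes letters only.

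Il10 encodes interleukin-10, the best known suppressive cytokine of Treg cells. Its log2 signal in untreated Atg7+/- replicates 1 to 4 was 9.55, 9.80, 10.11 and 9.74, and in untreated Atg7-/- replicates it was 10.03, 9.97, 9.90 and 10.02. Under rapamycin it was 9.37, 8.95, 9.03 and 9.14 in Atg7+/- cells and 9.12, 9.55, 9.90 and 9.74 in Atg7-/- cells. All 4 rapamycin Atg7+/- arrays were below all 8 untreated arrays, whereas the rapamycin Atg7-/- arrays reached from the range of the rapamycin Atg7+/- arrays up to the lowest untreated Atg7-/- value. The group means, from the highest, were 9.98 ± 0.0581 (SD, n = 4) in untreated Atg7-/- cells, 9.80 ± 0.232 in untreated Atg7+/- cells, 9.58 ± 0.336 in rapamycin Atg7-/- cells and 9.12 ± 0.183 in rapamycin Atg7+/- cells. No neighbours in that order differed at the threshold (adjusted p = 0.575, 0.319 and 0.0926, limma), while the ends differed 1.81-fold (log2 difference 0.86, adjusted p = 0.000345, limma). That span crosses both genotype and treatment, and its arrays did not overlap, as in 17.4% of all tested genes in the higher direction. In that comparison 16.4% of all genes were called higher, and of the 5 measured genes Il10 was the 1 called.

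Tgfb1 encodes TGF-beta 1, which restrains T cells and helps to induce Foxp3. Its log2 signal was 10.33, 10.40, 10.42 and 10.44 in untreated Atg7+/- replicates and 10.35, 10.42, 10.17 and 9.84 in untreated Atg7-/- replicates. Under rapamycin it was 9.84, 9.92, 10.12 and 10.11 in Atg7+/- cells and 10.23, 9.91, 10.04 and 10.12 in Atg7-/- cells. The untreated Atg7+/- arrays lay close together above every rapamycin array of either genotype, and untreated Atg7-/- cells ranged from that level down to 9.84, the level of the lowest rapamycin array. The means ran from 10.40 ± 0.0454 (SD, n = 4) in untreated Atg7+/- cells through 10.19 ± 0.261 in untreated Atg7-/- cells and 10.07 ± 0.134 in rapamycin Atg7-/- cells to 10.00 ± 0.138 in rapamycin Atg7+/- cells. Neighbours in the order did not differ at the threshold (adjusted p = 0.381, 0.485 and 0.801, limma). Untreated Atg7+/- and rapamycin Atg7-/- arrays did not overlap for Tgfb1, as in 10.8% of all genes in the lower direction, at a log2 difference of -0.32 (adjusted p = 0.0585, limma).

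Ebi3 encodes the chain shared by interleukin-27 and interleukin-35. It had 2 probe sets, and the one with the higher mean over the arrays was used. On it the log2 signal was 7.36, 7.09, 7.22 and 7.21 in untreated Atg7+/- replicates and 6.88, 7.09, 6.80 and 7.27 in untreated Atg7-/- replicates. Under rapamycin it was 6.96, 6.47, 6.54 and 6.76 in Atg7+/- cells and 6.40, 6.63, 6.86 and 6.96 in Atg7-/- cells. Untreated Atg7+/- arrays were above every rapamycin array, and untreated Atg7-/- arrays overlapped all other groups. Means fell in the order 7.22 ± 0.113 (SD, n = 4), 7.01 ± 0.212, 6.72 ± 0.249 and 6.68 ± 0.224 for untreated Atg7+/-, untreated Atg7-/-, rapamycin Atg7-/- and rapamycin Atg7+/- cells, and no neighbours differed at the threshold (adjusted p = 0.461, 0.133 and 0.942, limma). Rapamycin Atg7-/- cells were 1.42-fold below untreated Atg7+/- cells (log2 difference -0.51, adjusted p = 0.0155, limma), a comparison in which 8.56% of all genes were called lower.

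The second Ebi3 probe set was correlated with the first at r = 0.87 over the 16 arrays, which include the group differences, and the values of an array differed by at most 0.337. It gave 7.16, 7.34, 7.36 and 7.15 in untreated Atg7+/- cells and 6.85, 6.34, 6.43 and 6.86 in rapamycin Atg7+/- cells, again without overlap. In Atg7-/- cells it gave 6.89, 6.98, 6.71 and 7.16 untreated and 6.51, 6.45, 7.20 and 6.73 under rapamycin. There rapamycin replicate 3 was the highest of the 8 on this probe set, but not on the first.

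**Figure D1:**
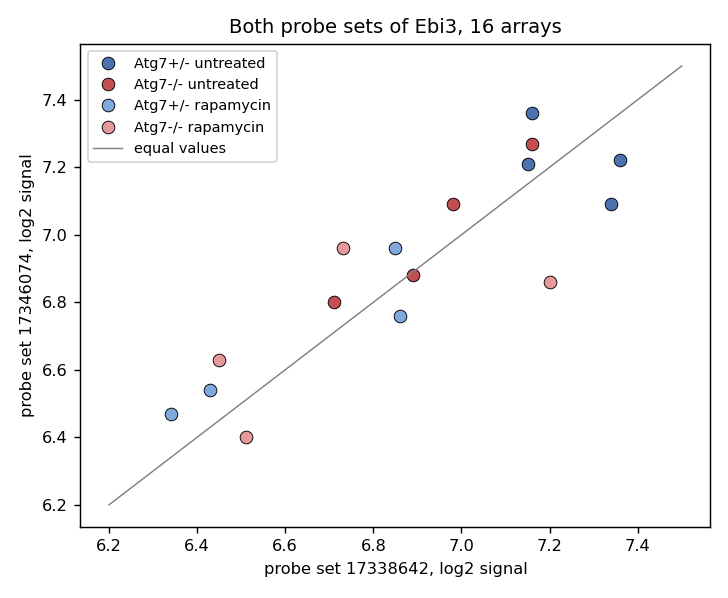
The log2 signals of the Ebi3 probe sets are plotted against each other, 1 point per array, marked by group. Both place the untreated Atg7+/- arrays above the rapamycin Atg7+/- arrays, and the largest gap between them on an array is 0.337.

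Il12a encodes the other chain of interleukin-35, which is also a chain of interleukin-12. It was dim, with all 16 values between 3.60 and 4.30, not far above the filter at 3.549. Untreated replicates had 3.86, 3.99, 3.95 and 4.30 in Atg7+/- cells and 4.17, 4.10, 4.01 and 4.17 in Atg7-/- cells. Rapamycin replicates had 3.72, 4.02, 3.80 and 3.65 in Atg7+/- cells and 3.60, 3.64, 4.09 and 3.99 in Atg7-/- cells, and in each genotype they overlapped the untreated ones. The means were 4.11 ± 0.0774 (SD, n = 4) in untreated Atg7-/- cells, 4.03 ± 0.191 in untreated Atg7+/- cells, 3.83 ± 0.245 in rapamycin Atg7-/- cells and 3.80 ± 0.16 in rapamycin Atg7+/- cells. No neighbours in the order, nor its ends, differed at the threshold (adjusted p = 0.781, 0.281 and 0.939 for neighbours and 0.0646 for the ends, limma).

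Penk, the proenkephalin gene, had a log2 signal of 9.91, 10.02, 9.82 and 9.82 in untreated Atg7+/- replicates and 9.72, 9.73, 9.58 and 9.54 in untreated Atg7-/- replicates. Under rapamycin it was 9.47, 9.13, 9.66 and 9.96 in Atg7+/- cells and 9.38, 9.81, 9.71 and 9.91 in Atg7-/- cells. The untreated genotypes did not overlap, with Atg7-/- lower, while the rapamycin Atg7+/- arrays were spread from the lowest value of all 16 to within the untreated Atg7+/- range. Its order of means was unlike that of the other genes: 9.89 ± 0.0931 (SD, n = 4) in untreated Atg7+/-, 9.70 ± 0.23 in rapamycin Atg7-/-, 9.64 ± 0.0959 in untreated Atg7-/- and 9.55 ± 0.347 in rapamycin Atg7+/- cells. No neighbours differed at the threshold (adjusted p = 0.39, 0.803 and 0.689, limma), nor did the ends (adjusted p = 0.124, limma).

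**Figure D2:**
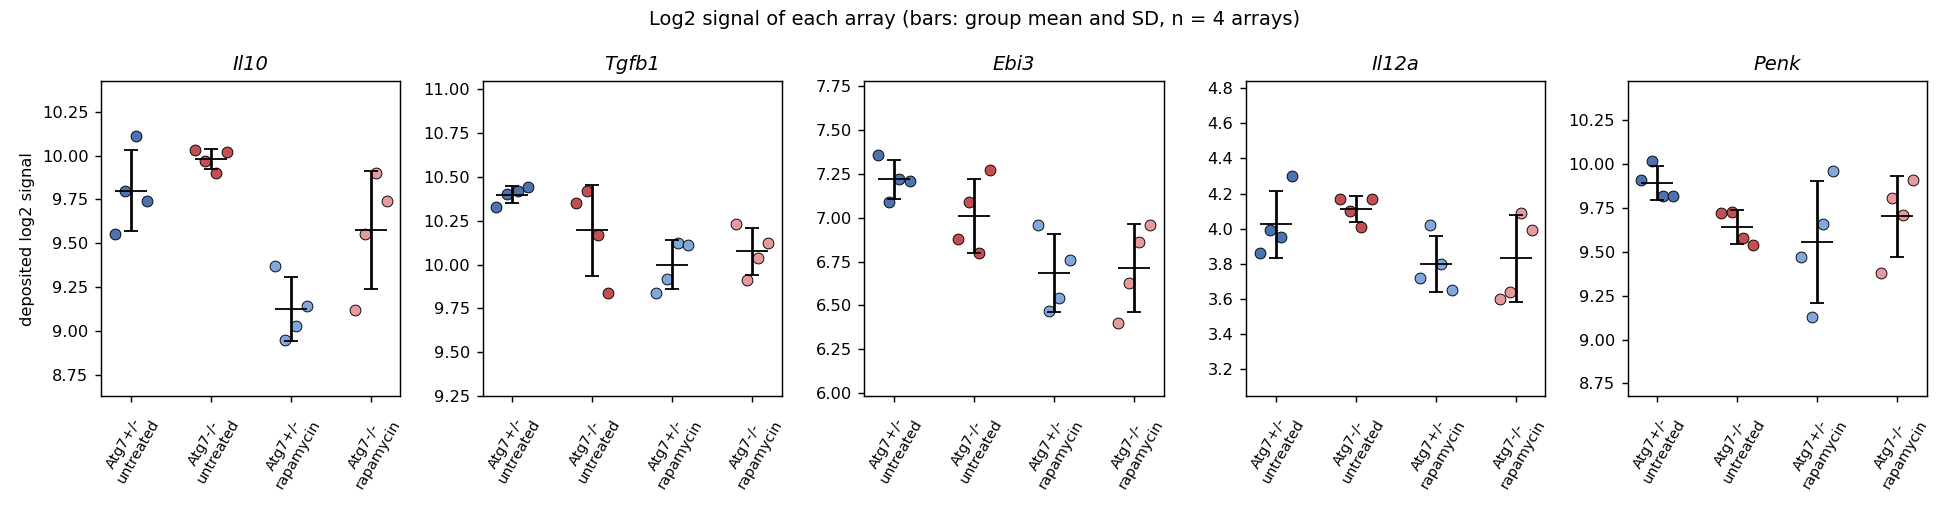
Log2 signal of each measured gene on every array, in 4 groups of 4. Points are arrays, and bars show the group mean and SD. Il10 in rapamycin Atg7+/- cells, at 8.95 to 9.37, lies below both untreated groups, and rapamycin Atg7+/- cells have the lowest mean for all 5 genes.

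The first comparison asks what rapamycin did to these genes in Treg cells that keep 1 intact Atg7 copy. Il10, Ebi3 and Tgfb1 fell, so that 3 of the 5 measured genes were called lower, where 8.11% of all 16760 genes were called lower and 14.1% were called in either direction. Il10 fell 1.6-fold (log2 difference -0.68, 95% interval -0.98 to -0.37, adjusted p = 0.00565, limma). Ebi3 fell 1.45-fold (log2 difference -0.54, interval -0.82 to -0.25, adjusted p = 0.0141, limma), and Tgfb1 fell 1.32-fold (log2 difference -0.40, interval -0.64 to -0.16, adjusted p = 0.0263, limma). The arrays of these 3 genes did not overlap between the groups, which held for 13.1% of all genes in the lower direction. Penk and Il12a had log2 differences of -0.34 and -0.23 and did not pass the test (adjusted p = 0.124 and 0.227, limma). The median of the 5 differences was -0.40, against -0.03 over all tested genes. The arrays measure bulk samples, in which fewer cells of a type and less RNA per cell cannot be told apart. All 5 markers of effector or tissue-type Treg cells also fell in this comparison, with a median of -0.84, and so did 2 of the 7 T and Treg cell markers, Cd4 (-0.67, adjusted p = 0.00769, limma) and Cd3e (-0.55, adjusted p = 0.00142, limma), while 0 of the 7 rose. Foxp3 had 0.08 and Il2ra 0.03 and neither was called, and the 7 had a median of -0.05. The part of these shifts in the fall of Il10, Ebi3 and Tgfb1 was not tested.

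The 3 calls differed in how firmly they held. Il10 stayed called in all 25 alternatives run, with adjusted p from 0.001 to 0.0233. The Ebi3 call was lost without rapamycin Atg7+/- replicate 2 (adjusted p = 0.0526, limma), while its second probe set gave -0.63 (adjusted p = 0.0126, limma). The Tgfb1 call was lost when any of 5 arrays was left out, with adjusted p of 0.0566, 0.0594 and 0.0625 without untreated Atg7+/- replicates 2, 3 and 4 and of 0.0826 and 0.073 without rapamycin Atg7+/- replicates 1 and 2 (limma). Penk, conversely, was called without rapamycin Atg7+/- replicate 4 (log2 difference -0.47, adjusted p = 0.0306, limma), the 1 array that reached the untreated range.

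In Atg7-/- cells the same treatment had more genes called, 20% of all genes and 11.1% in the lower direction, and 0 of the 5 genes were called by limma. At an unadjusted p under 0.05 there were 3 of the 5, Il10, Ebi3 and Il12a, where 34.2% of all genes met that. Il10 had a log2 difference of -0.40 (interval -0.71 to -0.09, adjusted p = 0.0603, limma), and its rapamycin arrays lay at or below the lowest untreated value without overlap, as in 11.6% of genes in the lower direction. Ebi3 had -0.30 (interval -0.58 to -0.01, adjusted p = 0.133, limma) and Il12a -0.28 (interval -0.54 to -0.03, adjusted p = 0.108, limma). Tgfb1 had -0.12 (interval -0.36 to 0.12, adjusted p = 0.485, limma) and Penk 0.06 (interval -0.24 to 0.36, adjusted p = 0.803, limma). Without rapamycin Atg7-/- replicate 3, the array farthest from its group, Il10 was called at -0.51 (adjusted p = 0.0199, limma) and Il12a at -0.37 (adjusted p = 0.0413, limma). Il10 was also called without untreated Atg7+/- replicate 3 (adjusted p = 0.0497, limma), an array outside this comparison that enters through the shared spread.

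**Figure D3:**
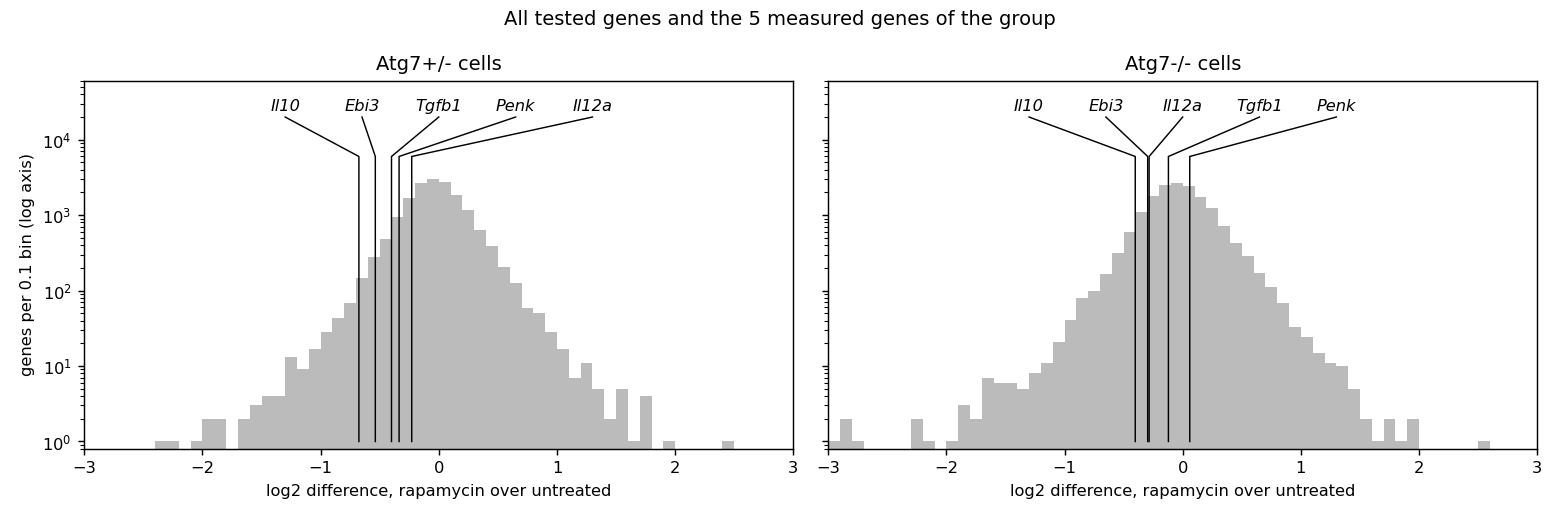
Histograms of the log2 difference, rapamycin over untreated, of all 16760 tested genes in each genotype, with a log count axis and the 5 measured genes marked. In Atg7+/- cells all 5 lie left of 0, from -0.68 for Il10 to -0.23 for Il12a. In Atg7-/- cells they lie from -0.40 to 0.06, and differences beyond 3 in size are counted in the end bins.

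The difference between the rapamycin effects of the genotypes was tested directly. By limma 0 genes were called, 0% of the 16760, and 0 of these 5, with 1052 genes (6.28%) and 0 of the 5 at an unadjusted p under 0.05. For Penk the rapamycin effect was 0.40 higher in Atg7-/- than in Atg7+/- cells (interval -0.03 to 0.82, adjusted p = 0.797, limma). The same quantity was 0.28 for Tgfb1 (interval -0.06 to 0.62), 0.27 for Il10 (interval -0.16 to 0.71), 0.24 for Ebi3 (interval -0.16 to 0.65) and -0.05 for Il12a (interval -0.42 to 0.31). The calls in Atg7+/- cells and their lack in Atg7-/- cells therefore do not show that the genotypes responded differently, and the intervals reach well past 0 in the positive direction for Il10, Tgfb1, Ebi3 and Penk.

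Loss of Atg7 was compared in each condition, and these comparisons use the same arrays as the rapamycin comparisons. In untreated cells 0 of the 5 genes were called by limma, where 3.14% of all genes were called, and 0 of the 5 had an unadjusted p under 0.05, where 17.4% of all genes had. Il10 was 0.18 (interval -0.13 to 0.49) and Il12a 0.08 (interval -0.17 to 0.34) on the positive side, with Atg7-/- higher. Penk was -0.25 (interval -0.55 to 0.05), Ebi3 -0.21 (interval -0.50 to 0.08) and Tgfb1 -0.20 (interval -0.44 to 0.04). Adjusted p-values were 0.381 to 0.781 (limma), and the lack of overlap for Penk was shared by 5.97% of genes in the lower direction.

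Under rapamycin 0 of the 5 genes were called between genotypes, where 3.24% of all genes were called, and 1 of the 5 had an unadjusted p under 0.05, where 18.3% of all genes had. That gene was Il10, with a mean 1.37-fold higher in Atg7-/- cells (log2 difference 0.45, interval 0.15 to 0.76, adjusted p = 0.0926, limma). The arrays of the groups overlapped for all 5 genes, and 9.77% of all genes did not overlap. Without rapamycin Atg7-/- replicate 1, whose 9.12 lies within the Atg7+/- range, the difference was 0.61 and called (adjusted p = 0.0204, limma). Penk had 0.15 (interval -0.15 to 0.45), Tgfb1 0.08 (interval -0.16 to 0.32), Ebi3 0.03 (interval -0.25 to 0.32) and Il12a 0.03 (interval -0.23 to 0.29).

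**Figure D4:**
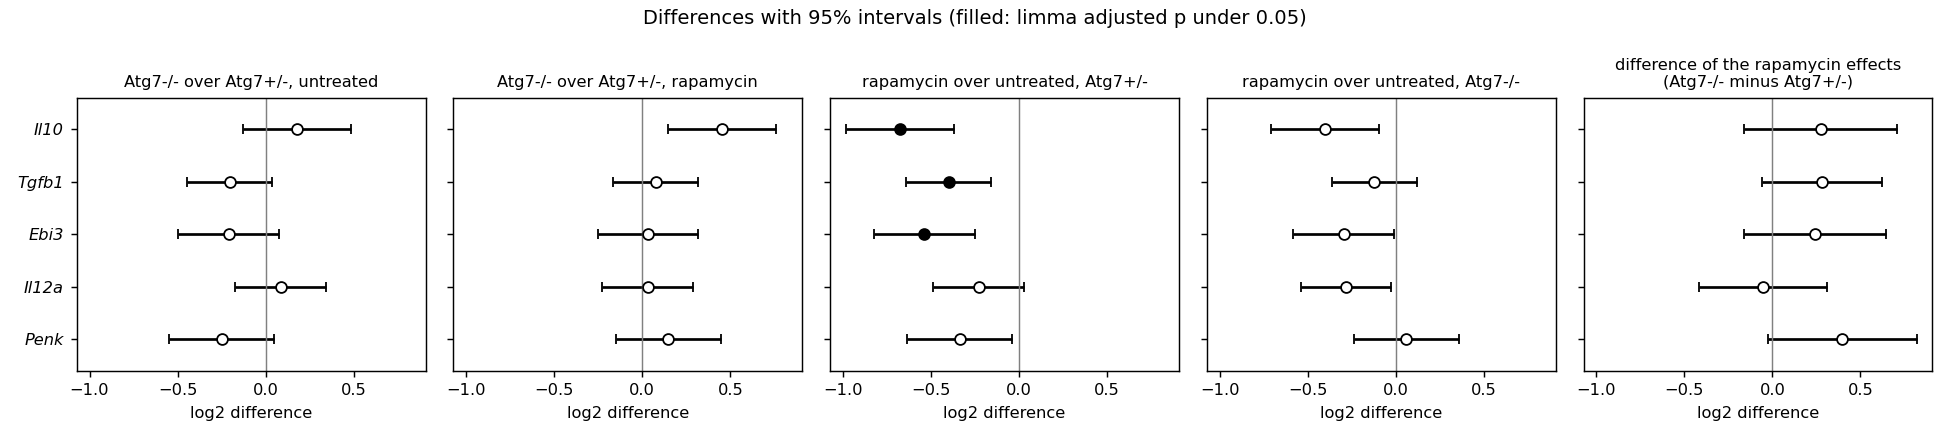
Log2 differences of the 5 measured genes in each comparison, with 95% intervals from the limma fit. For rapamycin in Atg7+/- cells, Il10, Ebi3 and Tgfb1 are called, and for Atg7 loss every interval but that of Il10 under rapamycin includes 0.

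Across arrays, the genes varied together only in part. Over all 16 arrays Il10 correlated with Ebi3 at r = 0.70, with Il12a at 0.64, with Penk at 0.41 and with Tgfb1 at 0.38. Over deviations from group means, which take out the group differences, Il10 and Ebi3 had r = 0.60, Il10 and Tgfb1 -0.20, and Tgfb1 and Ebi3 -0.40. Ebi3 and Il12a, whose products pair, had 0.52 over all arrays and 0.20 over deviations. Rapamycin Atg7-/- replicate 1 was the lowest of its group for Il10, Ebi3, Il12a and Penk and the highest for Tgfb1. The genes whose log2 signals followed a member most closely over the 16 arrays were, by Pearson r, Hamp (0.95), Sting1 (0.93) and Plscr1 (0.91) for Il10, and Nfkb2 (0.95), Slc38a7 (0.94) and Kdm6b (0.91) for Tgfb1. They were Gjb2 (0.89), Ufd1 (0.88) and Dnajc12 (0.88) for Ebi3, Tdrd12 (0.89), Lrrc75b (0.84) and Akr1c12 (0.84) for Il12a, and Mtmr4 (0.77), Degs1 (0.77) and Naip2 (0.76) for Penk.

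Among receptors for the listed products, 12 genes were tested, and under rapamycin in Atg7+/- cells 0 rose and 3 fell, with a median difference of 0.01 against -0.03 over all genes. Tgfbr2, the ligand-binding TGF-beta receptor, had -0.64 (adjusted p = 0.00467, limma), and Il12rb1, a chain of the interleukin-12 receptor, had -0.54 (adjusted p = 0.00393, limma). In Atg7-/- cells 1 rose and 4 fell, led by Il10ra, the interleukin-10-binding chain, with -0.82 (adjusted p = 0.00388, limma), and Il12rb1 with -0.81 (adjusted p = 9.51e-05, limma). Il6st, the shared signalling chain gp130, had -0.33 (adjusted p = 0.00416, limma). The Tgfbr2 call there, at -0.46, was lost without any 1 of 5 arrays and in 2 of 9 other settings. Between genotypes 1 receptor was called in untreated cells, Il12rb1 at 0.41 (adjusted p = 0.0483, limma). That call was lost without any 1 of 12 arrays and in 5 of 9 other settings. Under rapamycin 1 was called, Il10rb, the shared chain of the interleukin-10 receptor, at -0.44 (adjusted p = 0.0341, limma), lost without any 1 of 5. It was also lost with median centring (adjusted p = 0.0971, limma) and with only the compared groups (adjusted p = 0.0771, limma). For this list and those after it, the shares over all genes called lower and higher by rapamycin were 8.11% and 6.03% in Atg7+/- cells. In Atg7-/- cells they were 11.1% and 8.83%. For Atg7 loss they were 1.39% and 1.75% in untreated cells and 1.33% and 1.91% under rapamycin.

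Of 15 genes that store, release or transmit TGF-beta, rapamycin lowered 3 and raised 1 in Atg7+/- cells. Furin, the protease that cuts the TGF-beta precursor, fell by 0.83 on the log2 scale (adjusted p = 0.000144, limma). Smad3, a signal carrier, fell by 0.61 (adjusted p = 0.0104, limma), Smad7, an inhibitor of the pathway, fell by 0.47 (adjusted p = 0.0142, limma), and Smad4, the common partner, rose by 0.36 (adjusted p = 0.0126, limma). In Atg7-/- cells 6 fell and 2 rose, and the largest falls were Furin with -0.96 (adjusted p = 2.29e-05, limma), Itgb8 with -0.61 (adjusted p = 0.000618, limma), Smad3 with -0.61 (adjusted p = 0.00688, limma) and Itgav with -0.45 (adjusted p = 0.00395, limma). The pathway's median was -0.00 in Atg7+/- and -0.08 in Atg7-/- cells, near the medians of all genes. Atg7 loss changed 0 of the 15 in untreated cells by limma, with 5 at an unadjusted p under 0.05. Under rapamycin 2 were lower, Itgb8 at -0.47 and Skil at -0.34 (adjusted p = 0.0204 and 0.0364, limma), calls lost without any 1 of 3 and 6 arrays. Both were also lost with median centring (adjusted p = 0.0585 and 0.143, limma) and with only the compared groups (adjusted p = 0.117 and 0.146, limma).

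**Figure D5:**
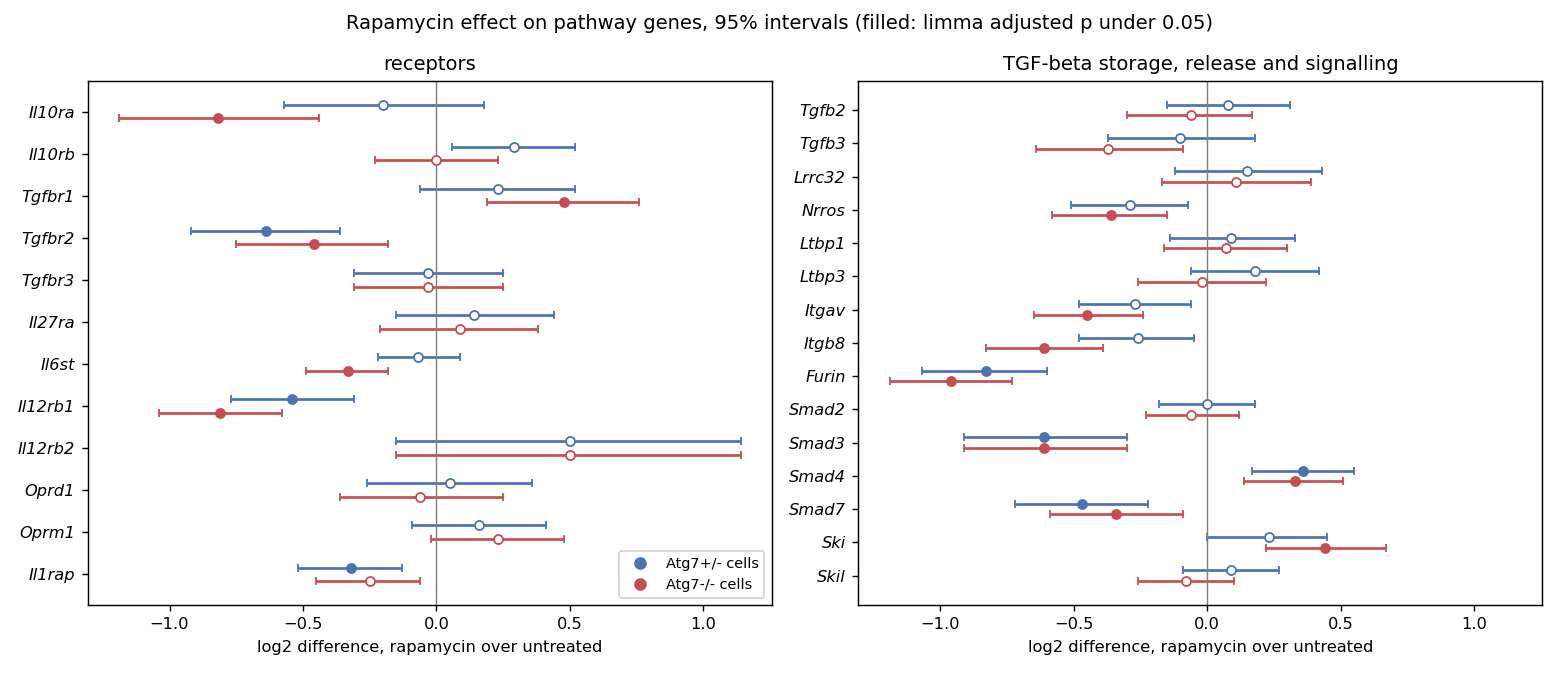
Log2 differences, rapamycin over untreated, of the tested receptor genes and of the genes that store, release or transmit TGF-beta, in Atg7+/- (blue) and Atg7-/- (red) cells. Bars are 95% intervals and filled points have a limma adjusted p under 0.05. Furin lies at -0.83 and -0.96, and Smad4 at 0.36 and 0.33 is filled on the other side of 0.

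Family relatives and chromosome neighbours of the members had few calls. Of the 3 other interleukin-12 family genes tested, Il27, which encodes the partner of Ebi3 in interleukin-27, fell under rapamycin in both genotypes (-0.33, adjusted p = 0.0485 and -0.31, adjusted p = 0.0451, limma), calls lost without any 1 of 10 arrays in each. They were also lost in 2 of 9 other settings in Atg7+/- cells and 5 of 9 in Atg7-/- cells. On chromosome 1 of GRCm38.p6 the gene order is Il24, Il20, Il19, Il10 and Mapkapk2, and of the 3 tested neighbours Il19 was called in neither genotype. Mapkapk2, a stress kinase gene, was called in Atg7+/- cells (-0.34, adjusted p = 0.0211, limma) and Il24 in Atg7-/- cells (-0.46, adjusted p = 0.0196, limma). Either call was lost when single arrays were left out. Il24 was dim, with group means of 3.61 to 4.07, not far above the filter at 3.549. None of 4 other genes of opioid precursors and their processing was called in any of the 4 pairwise comparisons by limma, and 1 had an unadjusted p under 0.05, for rapamycin in Atg7-/- cells.

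The 2 genes not measured have no values here. Genes near them in pathway or position are given instead, and these do not show the levels of Areg or Il1rl1. Of 6 other tested genes for epidermal growth factor family ligands and their release, rapamycin lowered 2 in Atg7+/- and 3 in Atg7-/- cells and raised 0 in either, with medians of -0.22 and -0.28 against -0.03 and -0.04 over all genes. Rhbdf2, which carries the shedding protease Adam17 to the surface, had -0.73 and -0.81 (adjusted p = 0.000502 and 0.000113, limma). Hbegf, a related ligand, had -0.60 in Atg7-/- cells (adjusted p = 0.00106, limma), while with Atg7 loss in untreated cells 2 of the 6 were higher. These were Adam10, a shedding protease, at 0.35 (adjusted p = 0.0162, limma), lost without untreated Atg7+/- replicate 4 (0.058) and with median centring (0.0796), and Hbegf at 0.45 (adjusted p = 0.0285, limma), lost without any 1 of 6 arrays. That Hbegf call was also lost in 2 of 9 other settings. Of 5 receptor genes beside Il1rl1, 2 fell in Atg7+/- cells and 1 in Atg7-/- cells, with medians of -0.18 and -0.09, and 0 rose. The second in Atg7+/- cells, Il1r2, a decoy receptor for interleukin-1, had -0.47 (adjusted p = 0.0439, limma) and lost its call without any 1 of 9 arrays, with the replicate block (0.0648) and with no filter (0.052). Il18rap, a chain of the interleukin-18 receptor, fell by 0.53 and 0.59 under rapamycin (adjusted p = 0.00493 and 0.00163, limma). Of 7 genes for interleukin-33 and its signalling, 2 fell in Atg7+/- cells, Irak2 at -0.38 (adjusted p = 0.00582, limma) and Il1rap at -0.32 (adjusted p = 0.0264, limma), the second lost without any 1 of 6 arrays, and the list's median was -0.27. In Atg7-/- cells 0 of the 7 were called by limma, with 2 at an unadjusted p under 0.05 and a median of -0.04.

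Transcription factors linked to Il10, Il1rl1 or Areg in T cells leaned lower under rapamycin. This list, like the others, was chosen with earlier results of these data known, so its lean is a description only. Of 21 tested, 4 fell and 0 rose in Atg7+/- cells, and 9 fell and 0 rose in Atg7-/- cells, with a median of -0.28 in both against -0.03 and -0.04 over all genes. Of the 4 in Atg7+/- cells, the calls of Maf, Junb and Rora were lost without any 1 of 11, 11 and 6 arrays, and all 3 were lost without untreated Atg7+/- replicate 3 (adjusted p = 0.142, 0.118 and 0.0875, limma). Ahr, the aryl hydrocarbon receptor, was the fourth and had -0.51 and -0.80 (adjusted p = 0.015 and 0.000492, limma). Prdm1, which encodes Blimp-1, a factor that supports Il10 in effector Treg cells, had -0.90 in Atg7-/- cells (adjusted p = 0.000363, limma), and Stat3 had -0.59 there (adjusted p = 0.00141, limma). Maf, an activator of Il10, had -0.59 and -0.90 (adjusted p = 0.0472 and 0.00314, limma), but with the mean of its probe sets adjusted p became 0.434 and 0.0722. With Atg7 loss 2 of the 21 rose and 1 fell in untreated cells, and 1 rose and 2 fell under rapamycin, with medians of 0.00 and -0.09. Fosb, an AP-1 family gene, fell in both (-0.85 and -0.82, adjusted p = 0.0184 and 0.0258, limma), calls lost without any 1 of 3 and 4 arrays. Rora fell under rapamycin (-0.44, adjusted p = 0.00934, limma), a call lost with only the compared groups (adjusted p = 0.0739, limma). Batf, an AP-1 family factor, rose by 0.60 in untreated cells (adjusted p = 0.0088, limma) and by 0.59 under rapamycin (adjusted p = 0.0144, limma). The second call was lost without rapamycin Atg7+/- replicate 2 (adjusted p = 0.0732, limma) and with only the compared groups (adjusted p = 0.0821, limma). Prdm1 rose by 0.68 with Atg7 loss in untreated cells (adjusted p = 0.0141, limma; 0.0528 without untreated Atg7+/- replicate 4).

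Markers of cell states and of other cell types were read beside these results. The effector markers Klrg1, Itgae, Ccr2, Cxcr3 and Tigit were 5 of 5 lower in Atg7-/- cells too, with a median of -1.19, as were 3 of the 7 T and Treg cell markers, with a median of -0.25. In Atg7+/- cells the Ccr2 and Klrg1 calls were lost without any 1 of 2 and 3 arrays. With Atg7 loss 0 of the 5 effector markers were called in untreated cells and 1 was lower under rapamycin, with medians of -0.07 and -0.36. That was Klrg1 (-1.16, adjusted p = 0.0234, limma), lost without any 1 of 4 arrays and with only the compared groups (adjusted p = 0.13, limma). Their mean log2 signal per array was 7.60 to 8.0 and 7.65 to 7.72 in untreated Atg7+/- and Atg7-/- cells, and 6.90 to 7.10 and 6.11 to 7.14 under rapamycin. Markers of monocytes, macrophages and dendritic cells, which can also make Il10, Ebi3 and Il12a, had a mean log2 signal of 4.44 to 4.62 in untreated Atg7+/- cells and 4.68 to 4.93 in untreated Atg7-/- cells. Under rapamycin that was 4.56 to 4.85 and 4.11 to 5.02, with 1 of 8 called higher and 1 lower in Atg7+/- cells. These were Flt3 (0.55, adjusted p = 0.0142, limma) and Xcr1 (-1.10, adjusted p = 0.000251, limma). Xcr1 was also called lower in Atg7-/- cells (-1.10, adjusted p = 0.000146, limma). Lyz2 had 1.00 in Atg7+/- cells without a call (adjusted p = 0.164, limma), and its SD in rapamycin Atg7-/- cells was 1.42. The part of these markers in the Il10 values was not tested. Markers of B cells had 4.06 to 4.42, of CD8 T and NK cells 4.19 to 4.66, of stromal and epithelial cells 4.32 to 4.64, and of mast cells and basophils 3.75 to 3.98, where Mcpt8, Cpa3 and Fcer1a were under the filter. Single members were brighter than these list means. In rapamycin Atg7-/- cells the CD8 marker Cd8b1 had a mean of 7.32 and the mast cell marker Kit 7.21. Cd8b1 was called higher with Atg7 loss under rapamycin (0.72, adjusted p = 0.0198, limma). The other tested members of its list, Cd8a (-0.18), Ncr1 (-0.11) and Klrb1c (0.08), were not called there. Kit was called higher under rapamycin in Atg7-/- cells (0.51, adjusted p = 0.00425, limma), while Ms4a2, the other tested mast cell marker, had 0.01. The B cell marker Pax5 was called lower under rapamycin in Atg7+/- and Atg7-/- cells (-0.30 and -0.52). Cd79b had -0.25 and -0.29 and Cd79a -0.02 and 0.08, and neither was called. Conventional T cell markers, several of which Treg cells share, had 7.77 to 8.39, a mean over members that moved in both directions. Under rapamycin Il7r (0.55 and 0.96) and Bach2 (0.63 and 0.70) were called higher in Atg7+/- and Atg7-/- cells. Cd40lg was called lower in both (-0.75 and -0.66), and had 0.59 with Atg7 loss under rapamycin (adjusted p = 0.0301, limma). Themis had 1.36 with Atg7 loss in untreated cells (adjusted p = 0.000706, limma) and -1.34 under rapamycin in Atg7-/- cells (adjusted p = 0.000103, limma).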

How the data were processed

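Treg cells of 4 groups were measured on 16 arrays, and the deposited values are log2 signals for 41345 probe sets. Per the submitters' processing notes, which give neither order nor settings, the tools were RMA and Partek 6.6. No source states the base of the log values; it was taken as 2, RMA's base, and every fold rests on that. Genome build and batches: not given in the sources used here. Arrays give no read depth, so their number limits precision.

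Probe sets were named through GEO's platform annotation: 23521 had 1 gene symbol, 1814 several and 16010 were not listed. Of the first, 23328 matched a current gene record. They stood for 22180 genes. For 1082 genes with several probe sets the one with the highest mean was used. Genes whose highest group mean exceeded 3.549, the 30th percentile of all values, were tested (16760 kept, 5420 left out).

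One mean per group was fitted in limma 3.58.1 under R 4.3.3 (eBayes without trend or robust, 12 residual and 5.64 prior degrees of freedom) and tested on simulated data. Tests were two-sided and adjusted by Benjamini-Hochberg over all genes tested, with calls at 0.05. Each gene has a single spread across the groups. Intervals cover 95% and come from the moderated fit. Sequences were matched by symbol in RefSeq's promoter table, which gave Tgfb1, Ebi3 and Il12a, and motifs were counted over all its windows. Figures used Python 3.11.15, pandas 2.3.3 and matplotlib 3.10.9.

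The members and the gene lists were chosen with earlier results of these data known. Named list genes are up to 4 called genes with the largest change per list and comparison, or up to 2 with the smallest p where none was called, of which a selection is printed. The genes most like a member are the 3 with the highest Pearson r, leaving out predicted genes, clones, small RNA genes and olfactory or vomeronasal receptor genes. Alternatives were other filters, scaling, several probe sets averaged, array weights, trend with robust options, a replicate block, fits on the compared groups only and leaving out each array. Leaving out arrays of other groups, and each Ebi3 probe set alone, were added after seeing the data.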

Additional observations from a re-analysis of the deposited data

How the results depend on the processing

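Of 625 values of the 5 genes under alternatives, 601 kept direction and side of the threshold, 6 lost a call, 6 gained one and 12 turned sign. The sign turns were all of values near 0 that were not called. For Atg7 loss under rapamycin, Ebi3 became -0.04, -0.02, -0.02 and -0.05 without rapamycin Atg7+/- replicates 2 and 3 and rapamycin Atg7-/- replicates 3 and 4, and Il12a became -0.02, -0.06 and -0.02 without rapamycin Atg7+/- replicate 4 and rapamycin Atg7-/- replicates 3 and 4. Their highest values without 1 array were 0.14 and 0.11. For the difference of the rapamycin effects Il12a became 0.01 with median centring and 0.02, 0.02 and 0.01 without rapamycin Atg7+/- replicate 2 and rapamycin Atg7-/- replicates 1 and 2, with a lowest value of -0.15. For rapamycin in Atg7-/- cells Penk became -0.01 without rapamycin Atg7-/- replicate 4 and at most 0.17 without another. Il12a gave no value with the 50th percentile filter, which it did not pass.

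Leaving out 1 array, the number of the 5 genes called was 1 to 4 for rapamycin in Atg7+/- cells, 0 to 2 in Atg7-/- cells and 0 to 1 for Atg7 loss under rapamycin. With trend and robust options 1 was called for rapamycin in Atg7-/- cells, which was Il10 (adjusted p = 0.0474, limma). Over all genes, Atg7 loss in untreated cells gave 527 calls, 318 with median centring, 974 with array weights and 284 to 694 without 1 array. Atg7 loss under rapamycin gave 543, with 820 under the stricter filter, 350 with median centring, 886 with trend and robust options, 20 with only the compared groups and 95 to 789 without 1 array. Rapamycin gave 1559 to 2785 calls in Atg7+/- cells without 1 array, and the difference of its effects gave 0 to 1. The causes were not tested. The share of calls that were higher was 58.9% for Atg7 loss under rapamycin, 72.3% with median centring and 69.2% with quantile normalization, and for rapamycin in Atg7+/- cells 42.7%, 31.5% and 34.0%.

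The values did not settle whether replicate numbers pair the samples. Over 24 pairs of same-numbered arrays, deviations from group means correlated at -0.08 to 0.36, with a median of 0.02 and 6 pairs over 0.1. Pairs of different numbers had a median of -0.01, and 7 of 16 arrays correlated best with their own number. With the replicate block 529 and 592 genes were called for Atg7 loss without and with rapamycin, 2492 for rapamycin in Atg7+/- cells, 3491 in Atg7-/- cells and 0 for the difference, and 3 of the 5 genes stayed called for rapamycin in Atg7+/- cells.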

Other observations

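Other suppressive products of Treg cells moved in several directions. With Atg7 loss in untreated cells 3 of 9 tested rose and 2 fell: Gzmb, which encodes granzyme B, had a log2 difference of 1.65 and Lgals1, which encodes galectin-1, had 1.12, while Fgl2, a secreted fibrinogen-like protein gene, had -0.78 and Nt5e, which encodes the adenosine-forming enzyme CD73, had -0.67. The third that rose, Il1rn, the interleukin-1 receptor antagonist gene, had 0.72, a call lost without any 1 of 6 arrays and in 2 of 9 other settings. Over all genes, 1.75% were called higher and 1.39% lower with Atg7 loss in untreated cells. Under rapamycin in Atg7-/- cells 5 of the 9 fell and 2 rose, where 11.1% of all genes were called lower and 8.83% higher. Gzmb had -2.92 there (adjusted p = 7.41e-06, limma) and Lgals1 -1.41. In Atg7+/- cells 2 fell and 1 rose, where 8.11% of all genes were called lower and 6.03% higher. Lgals9, which encodes galectin-9, had -0.76 there (adjusted p = 0.00116, limma). Gzmb had -0.55 there and was not called. The direct test of the difference of the rapamycin effects did not call Gzmb (-2.38, interval -3.27 to -1.49, adjusted p = 0.139, limma). Between genotypes under rapamycin Gzmb had -0.73 (adjusted p = 0.197, limma), of opposite sign to untreated cells, and its SD in rapamycin Atg7-/- cells was 0.958.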
